A study of Mus musculus with 4 samples.

Results

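The genes described here encode the machinery that starts transcription in the nucleus: the subunits of RNA polymerases I, II and III (Pol I, Pol II and Pol III), their general initiation factors, and Mediator. Members were chosen by symbol from the gene annotation deposited with the series. A row was taken when its symbol was a Polr1, Polr2 or Polr3 gene, a numbered Taf, Gtf2, Gtf3 or Med gene, Tbp or a Tbp-like gene, or one of 9 named Pol I and Pol III genes (Twistnb, Cd3eap, Znrd1, Ubtf, Rrn3, Ttf1, Brf1, Brf2 and Bdp1). This gave 118 genes of the 26125 symbols on assembled chromosomes, with 245 of their 47116 transcript rows. Of the 118, 117 had a coding part, against 20992 coding genes in the whole annotation. The exception was Med9os, an RNA gene on the strand opposite Med9.

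Pol I transcribes the large ribosomal RNA precursor, Pol II transcribes messenger RNA genes, and Pol III transcribes transfer RNA and other short RNA genes. Each enzyme is built around a pair of large catalytic subunits, and a set of small subunits is common to all of them. TBP, the TATA-binding protein, takes part in initiation by every one of these enzymes: within SL1 for Pol I, within TFIID for Pol II and within TFIIIB for Pol III. Mediator carries signals from DNA-bound activators to Pol II, and its dissociable kinase module regulates that contact.

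The series profiled Pol I by CUT&Tag, in which an antibody directs a transposase to chromatin, in the C64 mouse embryonic stem cell line. The labels give 2 libraries from cells treated with 500 nM auxin for 6 h and 2 libraries from untreated control cells. Auxin is used to degrade proteins that carry a degron tag. The labels name no tagged protein or other allele, and do not say whether the replicates were separate cultures. No column of the annotation names a library and its score column was 0 in all 50727 rows, so auxin and control libraries were not compared here and their depth was not analysed here. What follows describes gene structure in the annotation of the build the labels give as mm10. Annotated coordinates have no replicate error and genes are not replicates of one another, so counts and medians are given beside those of all coding genes and without a test.

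As a group, the transcription machinery genes had locus lengths close to those of other genes but more, shorter exons. Their median span, from the first to the last annotated base of a gene, was 16342.5 bases, against 16724 for all coding genes. The transcript with the most exon bases, which stands for a gene here, had a median of 8.5 exons, against 7 in all coding genes. Spans are of the whole gene, so they can exceed the length covered by this transcript. Coding lengths are those of this transcript, which need not have the longest coding part of its gene. Median coding length was 1137 bases against 1194, and the coding bases per coding exon had a median of 131 against 162. The 3' untranslated part had a median of 836 bases against 708. At least 30 exons were present in 13 of 118 members, against 3.93% of coding genes. More than 50 kb was spanned by 20 members (16.9%), against 22.2% of coding genes.

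**Figure D1:**
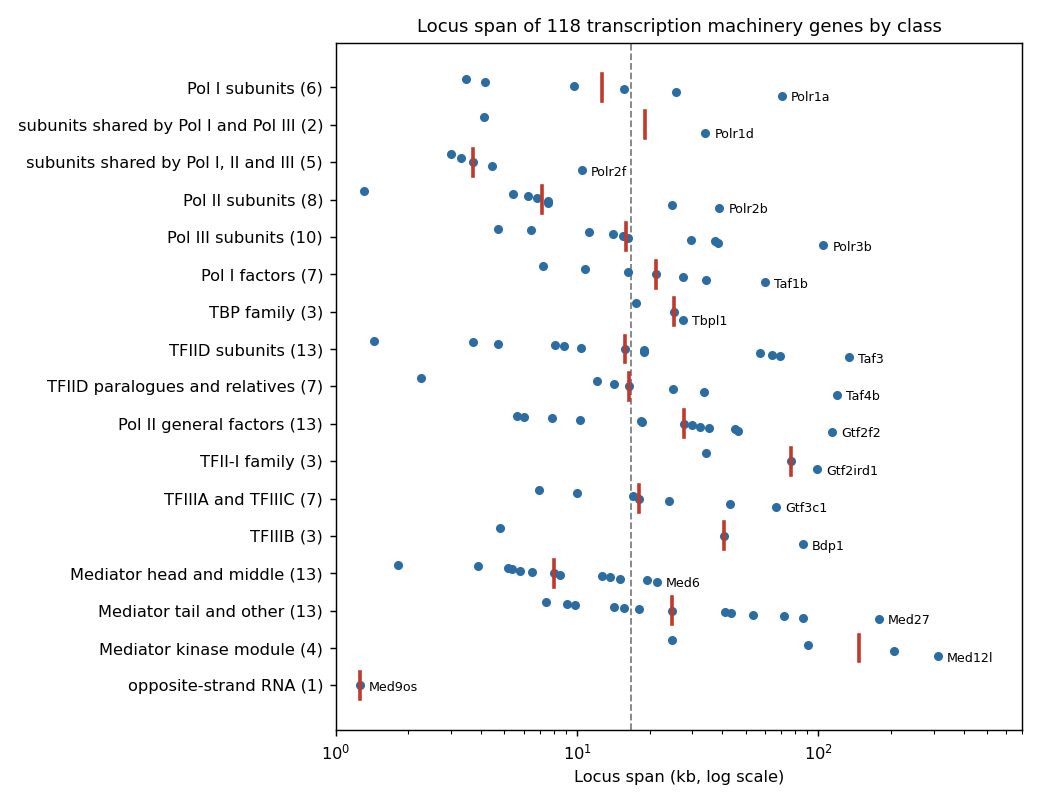
Span of each of the 118 genes in kb on a log axis, by class (number of genes in parentheses). Red bars are class medians, the dashed line is the median of all coding genes (16724 bases), and the longest gene of each class is named. The subunits shared by all polymerases sit at the short end and the Mediator kinase module at the long end.

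The catalytic subunits of the polymerases differed more in the length of their introns than in that of their coding parts. Polr1a, the largest Pol I subunit, spanned 70308 bases (chr6:71909053-71979360, plus strand) with 34 exons and 5154 coding bases. Its Pol II counterpart Polr2a, whose C-terminal heptad repeats are phosphorylated during transcription, spanned 24637 bases (chr11:69733997-69758633, minus strand) with 29 exons and the longest coding part of any polymerase subunit, 5913 bases. Polr3a, the Pol III counterpart, spanned 38365 bases (chr14:24448694-24487058, minus strand) with 31 exons and 4173 coding bases. Thus Polr1a spanned 2.85 times the length of Polr2a, with 0.872 times its coding length.

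The second largest subunits complete the active site. They had nearly equal coding parts of 3408 bases in Polr1b, 3525 in Polr2b and 3402 in Polr3b. Their spans were 25600, 38845 and 104881 bases, and they had 15, 25 and 28 exons. Polr3b (chr10:84622298-84727178, plus strand) was the longest polymerase subunit gene, and Polr1b coded for a protein of the same class in the fewest exons of the 3. Few exon sizes were common to these related genes. Of internal coding exons compared in order, Polr1a and Polr3a had 4 of 29 of the same size, Polr1a and Polr2a 2 of 27, Polr3a and Polr2a 2 of 27, Polr3b and Polr2b 2 of 23, Polr1b and Polr2b 1 of 13, and Polr1b and Polr3b 0 of 13. Each of these 6 genes had a single transcript row.

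The remaining Pol I subunits were shorter. Polr1e, which forms a heterodimer with the product of Cd3eap on the enzyme, had 14 exons over 15671 bases. Cd3eap itself was the shortest Pol I subunit gene at 3477 bases, with 3 exons and 1200 coding bases. Twistnb, part of the stalk that contacts Rrn3, spanned 9757 bases in 4 exons. Znrd1, the small zinc-ribbon subunit used in RNA cleavage, spanned 4168 bases and coded for 123 residues.

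The subunits shared by all the polymerases were the most compact. These 5 genes (Polr2e, Polr2f, Polr2h, Polr2k and Polr2l) had a median of 5 exons and 345 coding bases, and a median span of 3707 bases, the lowest of any class with more than 1 gene. Polr2k, with 3003 bases and 99 codons, was the shortest of them in span, and Polr2l, with 67 codons in 2 exons, had the shortest coding part of the representative transcripts. A second row of Polr2k coded for 58 residues. The coding median was set by the representative row of Polr2h, whose other row had 453 coding bases. Polr2f was the longest at 10450 bases, of which one intron took 5152. Among the subunits shared by Pol I and Pol III, Polr1c packed 9 exons into 4126 bases, whereas Polr1d spread 3 exons over 34016. Polr1d had 2 rows with the same start. One had 2 exons within 1741 bases and 402 coding bases, and the other joined the start to exons beyond a 23535-base intron and had 381 coding bases.

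The Pol II subunits had a median span of 7170 bases and a median of 673.5 coding bases, while those of Pol III had 15927.5 and 1074. Polr2i, a small zinc-binding subunit, was the shortest coding member at 1314 bases (chr7:30232074-30233387, plus strand) and held 6 exons. Polr2m, which encodes an inhibitor that associates with Pol II, had 4 exons and 2 rows with 1101 and 789 coding bases. In Pol III the shortest gene was Polr3d, at 4724 bases with 9 exons, and Polr3e had the most rows of any polymerase subunit, 5. Over all polymerase subunits, 10 of 31 had more than 1 row, and over all members 53 (44.9%) did, against 40.6% of coding genes and 35.3% of all symbols.

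Pol III exists with alternative subunits encoded by Polr3g and Polr3gl, of which Polr3g is known from embryonic stem cells. Polr3gl spanned 16310 bases and Polr3g 37177, while their coding parts were 657 and 672 bases. Each had 7 coding exons, and 1 of 5 internal coding exons had the same size.

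**Figure D2:**
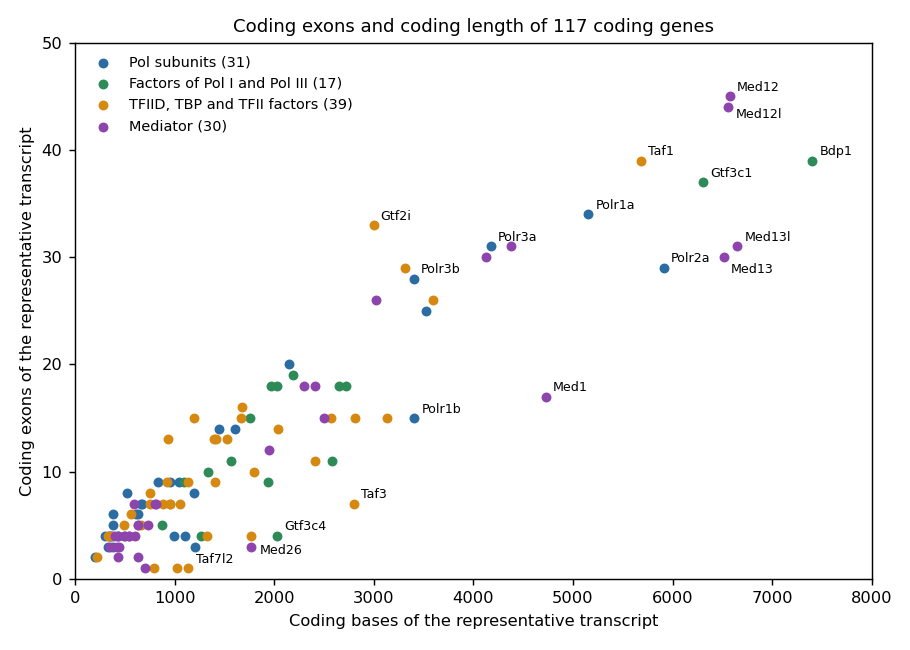
Coding exons against coding bases of the representative transcript for the 117 coding genes, coloured by complex (number of genes in parentheses). Med12 had the most exons, 45, and Bdp1 the most coding bases, 7404, while Polr1b held 3408 coding bases in 15 exons and Polr3b 3402 in 28.

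Of the Pol I factor genes, 5 of 7 had more than 1 transcript row. Ubtf, which encodes the HMG-box protein UBF that coats active ribosomal DNA, had 12 rows (chr11:102304560-102320862, minus strand), the highest number in the whole set together with Gtf2ird1. These rows began at 6 distinct 5' ends spread over 4157 bases, and their coding lengths lay between 510 and 2295 bases. A 111-base exon (chr11:102310926-102311036) was present in 4 rows, and 5 rows joined the same flanking exons without it. The other rows lacked both this exon and the one before it. The 111-base exon holds exactly 37 codons, so rows that differ only by it code for 764 and 727 residues. UBF is known in long and short splice forms that differ by part of an HMG box, the long one being the form active in Pol I transcription.

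**Figure D3:**
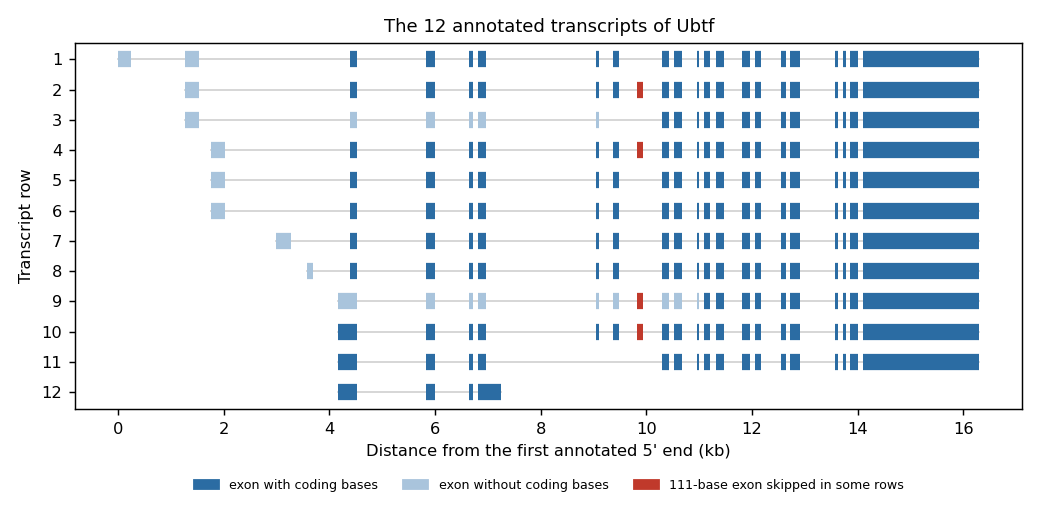
Exons of the 12 Ubtf transcript rows against distance from the first annotated 5' end in kb, with exons holding coding bases in dark blue and others in light blue. The 111-base exon, drawn in red whether or not it is coding in that row, appears in 4 rows, and the starts fall at 6 positions.

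Rrn3, which links Pol I to the promoter-bound factors, had 18 exons over 34143 bases and 1 row. Ttf1, the Pol I termination factor, had 12 exons over 27388 bases and 1 row. The TBP-associated factors of SL1, the Pol I selectivity factor, all had more than 1 row: 4 in Taf1a, 2 in Taf1b, 3 in Taf1c and 3 in Taf1d. Taf1b was the longest at 59991 bases, and Taf1c the shortest at 7233. The representative row of Taf1c covered 4673 of those bases, 73.3% of them in exons. In 3 of these 4 genes at least 1 row had no coding part, as in 9 members (7.63%) against 5.8% of coding genes.

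Tbpl2, which replaces TBP in mouse oocytes, had 1053 coding bases over 25230 bases, and 3 of its 5 internal coding exons had the sizes found in Tbp. Tbpl1, needed for spermatid development in mice, had 561 coding bases over 27571 bases and had 1 of 4 such exons in common with Tbp. One intron of Tbpl1 took 19024 bases. Tbp itself (chr17:15499888-15517427, plus strand) had 8 exons and 951 coding bases over 17540 bases, so that Tbpl2 and Tbpl1 spanned 1.44 and 1.57 times its length.

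TFIID, which recognises the core promoter, ranged from very short to very long genes. Taf10, a histone-fold subunit shared with the coactivator SAGA, spanned 1445 bases in 5 exons. Taf3, whose PHD finger reads H3K4me3, spanned 134058 bases in 7 exons because of an intron of 89481 bases, 66.7% of the gene. Taf1, the scaffold subunit, had the most exons of TFIID, 39, and one of 6 bases was the shortest exon in the representative transcript of any member. Taf6, another histone-fold subunit, and Taf11 had the most rows, 4 each.

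A retrocopy, a processed messenger RNA copied back into the genome, has no introns, so intronless members were listed. The single-exon count was 1 of 118 (0.847%), against 10.3% of coding genes. It was Taf7l2, a relative of Taf7 with 1137 coding bases over 2254 bases (chr10:116111664-116113917, minus strand), which lay inside Ptprr on the opposite strand. The coding part fell within 1 exon in 4 members (3.39%), against 15.5% of coding genes: Taf7l2, Taf7, Taf9 and Med7. The last 3 had introns in the untranslated part alone, with 2, 3 and 3 exons. The X-linked relatives of these TFIID genes were split by introns. Taf7l, used in germ cells, had 13 exons over 16375 bases, against 2 exons over 3714 bases in Taf7. Taf9b had 7 exons in a locus of 14285 bases, against 3 exons in a locus of 4718 bases in Taf9. The 7-exon row of Taf9b itself spanned 12969 bases. The RefSeq table also lists pseudogenes named for members, and none of them had a row under its name: Taf9-ps of 993 bases, Polr2d-ps1 of 5364, Polr2d-ps2 of 930 and Polr2k-ps of 390. On the interval of Polr2k-ps the annotation had 1 row under another name, and on the others 0.

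Other TFIID relatives resembled their counterparts to differing degrees. Taf4b, a form of Taf4 known from ovary and testis, had 15 exons, as did Taf4, and 6 of 13 internal coding exons had equal sizes, while it spanned 118859 bases against 64501. Taf5l and Taf6l, the SAGA counterparts, had 0 of 2 and 1 of 8 exon sizes in common with Taf5 and Taf6. Taf5l coded in 4 exons against 11 in Taf5, and Taf6l in 10 against 14 in Taf6. Taf15, an RNA-binding FET family protein, had 16 exons over 33636 bases.

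The general factors of Pol II had a median span of 27707 bases and 9 exons. Gtf2b, the single-chain factor that bridges TBP and Pol II, had 7 exons over 18360 bases. The TFIIF subunits differed in span, with 7887 bases in Gtf2f1 and 113929 in Gtf2f2, of which one intron of Gtf2f2 took 45901. The 5 TFIIH genes in the set ranged from Gtf2h5, with 71 codons over 5661 bases, to Gtf2h2, with a locus of 32381 bases. The representative row of Gtf2h2 had 16 exons over 24033 bases. Gtf2a1l, a germ cell form of Gtf2a1, had 9 exons, as did Gtf2a1, and 2 of 7 had equal sizes. Their spans were 46491 and 35226 bases.

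The TFII-I family consists of signal-responsive DNA-binding proteins with repeated domains, and its 3 genes lay together on chromosome 5. Gtf2ird2 and Gtf2i were 19688 bases apart and Gtf2i and Gtf2ird1 42900. Gtf2i had 35 exons and 11 rows over 76929 bases, Gtf2ird1 30 exons and 12 rows over 99056, and Gtf2ird2 16 exons and 2 rows over 34106. Of 13 internal coding exons of Gtf2ird2, 11 (84.6%) matched Gtf2i in size and order, the highest share of any pair compared, while Gtf2ird1 matched Gtf2i in 7 of 27. Each of the 3 genes had a skipped exon of 57 bases, or 19 codons.

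In the class of TFIIIA and TFIIIC, Gtf3a, the zinc finger protein that binds the ribosomal RNA genes transcribed by Pol III, was the shortest at 6958 bases with 9 exons. The 6 TFIIIC genes, whose products read the internal promoters of transfer RNA genes, had a median of 15 exons and 2340 coding bases. Gtf3c1, the largest, had 37 exons and 6306 coding bases over 66735 bases. Gtf3c6 was the shortest of them, at 10012 bases, and its 4 rows had between 498 and 687 coding bases. The representative row of Gtf3c4 held 2031 coding bases in 4 coding exons and had 4434 bases of 3' untranslated sequence. Another row of Gtf3c4 had 2454 coding bases. In TFIIIB, Bdp1 had the longest coding part of all members, 7404 bases in 39 exons over 86077 bases (chr13:100017994-100104070, minus strand). Brf2, which serves Pol III promoters with upstream elements, had 4 exons over 4801 bases, and Brf1, used at transfer RNA promoters, had 18 exons over 40760 bases. The 3 TFIIIB genes had 1 row each.

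Mediator genes differed in size between the groups used here. These were made by hand, and the tail and other group is not the tail module alone. It includes Med1, Med14, Med19, Med26, Med28 and Med30. The 13 head and middle genes had a median span of 8022 bases, 4 exons and 495 coding bases. The 13 tail and other genes had 24823 bases, 15 exons and 2301 coding bases, and the 4 kinase module genes 147642 bases, 37.5 exons and 6565.5 coding bases. Exons and coding bases are those of the representative rows, and some genes had other rows with longer coding parts. In Med6 these reached 741 bases against 588, and in Med22 711 against 423. In the head and middle, Med11 was the shortest at 1815 bases, Med6 the longest at 21452, Med17, the head scaffold, had the most exons, 12, and Med22 the most rows, 5. Among representative rows, that of Med20 had the longest 3' untranslated part of all members, 5174 bases. It had 3 exons and 438 coding bases, while a row of Med20 with 4 exons had 639. In the tail and other group, Med29 was the shortest at 7444 bases and Med27 the longest at 177981. Rows of Med27 began at positions 31704 bases apart and coded for between 93 and 311 residues. Med14, the scaffold between the modules, had the most exons of that group, 31, and Med24 the most rows, 6. Med26, which recruits elongation factors, had 3 exons and one intron of 50297 bases, 93.6% of its span. Med1, which binds nuclear receptors, had rows coding for 556 to 1575 residues.

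The kinase module paralogues gave the sharpest contrast between introns and coding parts. Med12l spanned 311439 bases (chr3:59006978-59318416, plus strand), the longest member, and Med12 24844 bases (chrX:101274091-101298934, plus strand), a ratio of 12.5. Their coding parts were 6558 and 6573 bases in 44 and 45 exons, and 23 of 42 internal coding exons had equal sizes in order. The longest intron was 133987 bases in Med12l and 1666 in Med12. Med13l spanned 204720 bases and Med13 90564, with 31 and 30 exons, 6651 and 6516 coding bases, and 6 of 28 exons of equal size. Med12 activates the kinase and Med13 tethers the module to Mediator.

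**Figure D4:**
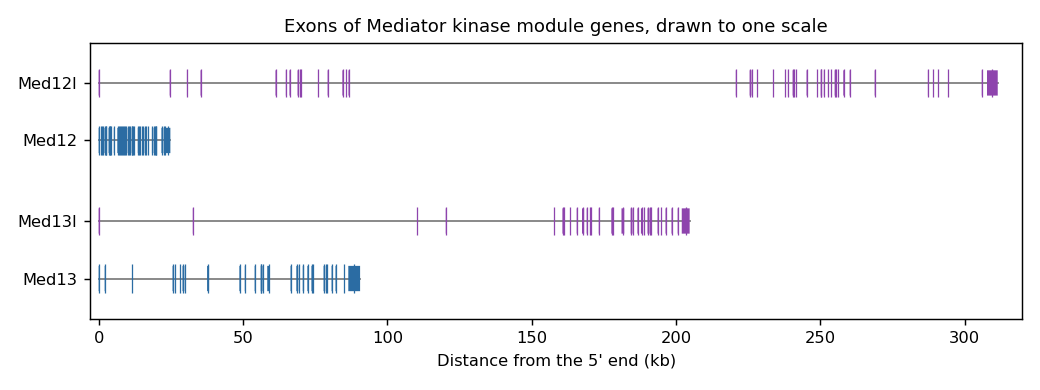
Exons of the paralogue pairs Med12l and Med12, and Med13l and Med13, against distance from the 5' end in kb. Thin marks show exon positions, drawn wider than their length where exons are short. Med12l holds its 44 exons in 311439 bases and Med12 its 45 exons in 24844 bases.

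An exon skipped between rows that share both flanking exons was found in 25 of the 53 members with more than 1 row (47.2%), against 45.1% of such coding genes. Of 36 skipped exons, 26 were wholly coding, and 19 of these (73.1%) had a length divisible by 3, against 68.3% in all coding genes. In Mediator, skipped exons of any length were found in 6 of 7 head and middle genes with more than 1 row. In the tail and other group they were found in 4 of 8 such genes. Med15, which binds activators through its KIX domain, had exons of 40, 43 and 71 codons that were skipped in some rows. Med23 had one of 6 codons, Med24 one of 19 and Med25 one of 24. In the head and middle, Med8 had one of 16 codons, Med17 one of 46 and Med22 one of 27. Exons that are not a multiple of 3 included one of 155 bases in Med20, one of 116 in Med6 and one of 121 in Ubtf.

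Many members had a start site close to that of a neighbour on the other strand. A divergent neighbour whose 5' end lay within 1 kb was present for 36 of 118 genes (30.5%), against 13.9% of all loci and 13.2% of coding loci. In 29 members (24.6%) that neighbour was a coding gene, a count for which no share over all loci was available. Med9 and Med9os are each other's neighbour, and both are among the 36. Polymerase subunits accounted for 14 of the 36, and the kinase module, TBP and TFII-I families and TFIIIB for 0. Among the closest pairs, 16 bases lay between the starts of Gtf2h3, a TFIIH subunit, and Eif2b1, a translation factor subunit, 34 bases between Polr1c and Yipf3, and 45 bases between Gtf3c4 and Ddx31, an RNA helicase. The bases between the 2 starts are short enough to print. The stretches run from 100 bases before the member's start to 30 bases after it, on the member's strand, from RefSeq promoter windows of GRCm38.p6, and capitals mark the bases between the start sites. They are chr5:124579048-124579177 (plus), chr17:46248016-46248145 (minus) and chr2:28840331-28840460 (minus).
Gtf2h3: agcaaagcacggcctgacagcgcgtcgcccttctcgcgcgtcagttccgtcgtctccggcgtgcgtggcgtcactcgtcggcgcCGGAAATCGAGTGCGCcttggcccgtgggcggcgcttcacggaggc
Polr1c: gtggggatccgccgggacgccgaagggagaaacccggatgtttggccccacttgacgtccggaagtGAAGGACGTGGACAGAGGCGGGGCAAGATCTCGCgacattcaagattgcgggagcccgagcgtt
Gtf3c4: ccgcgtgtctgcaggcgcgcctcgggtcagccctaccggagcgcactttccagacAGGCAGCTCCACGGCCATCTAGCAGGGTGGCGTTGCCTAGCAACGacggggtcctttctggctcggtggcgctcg

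Other close pairs included Polr3d with the microRNA gene Mir320 at 38 bases, Polr2d with Gm26533 at 44, Polr1b with Gm46764 at 52, Taf11 with Anks1 at 63, Znrd1 with Znrd1as and Med9 with Med9os at 66 each, Med20 with Bysl at 92 and Taf5l with Urb2 at 99. Overlap with another gene was nearer the background. It was present in 31 members (26.3%), against 24.9% of all loci and 19.2% of coding loci. In 38 of 45 overlapping pairs the genes were on opposite strands, and 23 members shared exon bases with the partner. Without strand-specific data, signal over such bases cannot be assigned to one of the genes. Convergent ends were the commonest form, in 18 pairs. No share over all loci was available for strand, shared exon bases or form of overlap, so these counts have no background here.

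Among the polymerase genes, exon bases were shared, for example, by Polr1e with Fbxo10 (32), Cd3eap with the repair gene Ercc1 (106), Polr2b with Igfbp7 (89), Polr2c with Dok4 (415), and Polr2k with Spag1 on the same strand (259). Polr2i shared exons at both ends, 124 bases with Tbcb and 91 with Ovol3. In the TAFs, Taf1c shared 481 exon bases with Dnaaf1, Taf3 1031 with Gm13262, and Taf6l 935 with Gm2518, and Taf9 lay wholly inside Ak6 on the same strand with 196 in common. The values were 84 for Taf1d with Cep295, 71 for Taf6 with Ap4m1, 32 for Taf10 with Ilk, 9 for Taf5 with Atp5md and 4 for Tbpl1 with Slc2a12. Gtf3a shared 4042 bases, 58.1% of its span, with Mtif3, of which 781 were exonic. In Mediator, Med12l shared 1682 exon bases with Igsf10 and held 6 other genes in its introns, among them the purinergic receptor genes P2ry12, P2ry13 and P2ry14. Med13 overlapped Brip1os by 37411 bases, 800 of them exonic. Med20 lay inside Gm20517 on the same strand with 517 exon bases in common, Med31 shared 455 with 4930563E22Rik, Med9 126 with Rasd1, and Med19 296 with Zdhhc5.

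Some members lay near each other. Within 1 Mb of one another there were 23 pairs, involving 32 members and including Med9 with Med9os. No share over all genes was available for such pairs, so the count has no background here. Gaps ran up to 763530 bases, between Gtf3c5 and Med27, and 50 genes lay between Polr2a and Med11. Taf6l and Polr2g were 6711 bases apart with no gene between them, Med17 and Taf1d 26307, and Med12 and Taf1 233800 on the X chromosome. Gtf3c5, Gtf3c4, Ttf1 and Med27 lay in this order on chromosome 2, with 5, 3 and 3 genes between successive members. The X chromosome held 5 members and the Y chromosome 0. On contigs outside the assembled chromosomes, 6 members (5.08%, against 5.19% of all symbols) had further rows: Znrd1, Taf11, Gtf2h4, Bdp1, Med11 and Med21. The Bdp1 row there held 13 exons, against 39 on chromosome 13, and in the others the longest coding part was as long as on the chromosome.

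Promoter windows of 250 bases before to 50 after the start were found in RefSeq GRCm38.p6 for 102 members, and for 16847 coding genes in all. Only 1 window was used per gene, so further 5' ends of a gene had no window of their own. Ubtf, with 6 distinct 5' ends, was searched at 1 of them. The windows of the transcription machinery were rich in CpG. Their median ratio of observed to expected CpG was 0.819, against 0.599, and it was over 0.6 in 89 windows (87.3%), against 49.9%. Each motif below was searched as exact letters on both strands. The TATA box, bound by TBP, was searched as TATAAA and was present in 10.8% of windows, against 13.2% of all. Among windows with a CpG ratio over 0.6 the order turned round, with 12.4% of members against 5.70% of all. At the usual place, from -36 to -22 on the gene's strand, it was found in 2 members (1.96%), against 2.71% of all, and in 2.25% against 0.94% of the windows with a CpG ratio over 0.6. These were Polr2a at -33 and Taf13, a histone-fold TFIID subunit, at -32. The window of Tbp itself had no such match. The stretches run from -100 to 30, counted from the start site as 1 with no 0, and capitals mark TATAAA. They are chr11:69758604-69758733 (minus), chr3:108571599-108571728 (plus) and chr17:15499788-15499917 (plus).
Polr2a: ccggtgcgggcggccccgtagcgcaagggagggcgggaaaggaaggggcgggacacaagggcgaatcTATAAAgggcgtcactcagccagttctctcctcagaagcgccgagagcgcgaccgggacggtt
Taf13: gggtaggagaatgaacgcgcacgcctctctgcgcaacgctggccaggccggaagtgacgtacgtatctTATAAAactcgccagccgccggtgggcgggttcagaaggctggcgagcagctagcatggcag
Tbp: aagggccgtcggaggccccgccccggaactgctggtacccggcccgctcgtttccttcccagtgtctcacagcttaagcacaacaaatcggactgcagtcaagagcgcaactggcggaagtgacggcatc

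The GC box GGGCGG, bound by Sp1, was present in 58.8% of member windows, against 47.9% of all, but in 65.2% against 74.6% of the windows with a CpG ratio over 0.6. CCAAT, bound by NF-Y, was present in 31.4% against 39.2%. The widest gap in share was for CCGGAAG, the core of sites for ETS family factors such as GABPA, present in 35 of 102 windows (34.3%), against 12.2% of all. Among windows with a CpG ratio over 0.6 the matches were in 32 of 89 member windows, against 19.9% of all such windows. Of 40 matches in members, 33 (82.5%) lay between -70 and 50, against 66.2% of the matches in all coding genes. Among classes with at least 4 windows, the Pol I factors and the class of TFIIIA and TFIIIC had the highest share, 4 of 7 windows each, and the kinase module had 0 of 4. Of the 35 genes, 5 had 2 matches: Rrn3 at -5 and 19, Ttf1 at -30 and 5, Taf1a at -64 and -50, Taf12 at -32 and 12, and Med15 at 2 and 35. The Pol I factor genes with a match are shown because the series profiled Pol I. Stretches run from -70 to 30, and capitals mark CCGGAAG on either strand. They are chr16:13780629-13780728, chr2:29060193-29060292, chr1:183388815-183388914 and chr12:24498511-24498610, all on the plus strand.
Rrn3: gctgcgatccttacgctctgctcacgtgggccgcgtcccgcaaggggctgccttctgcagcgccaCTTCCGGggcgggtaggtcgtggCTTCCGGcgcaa
Ttf1: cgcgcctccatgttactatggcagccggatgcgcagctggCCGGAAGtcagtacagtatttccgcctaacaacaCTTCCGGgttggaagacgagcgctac
Taf1a: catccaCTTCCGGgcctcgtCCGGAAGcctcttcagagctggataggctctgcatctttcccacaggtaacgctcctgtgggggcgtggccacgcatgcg
Taf1b: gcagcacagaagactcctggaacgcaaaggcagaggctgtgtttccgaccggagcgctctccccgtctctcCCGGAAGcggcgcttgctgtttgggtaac

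**Figure D5:**
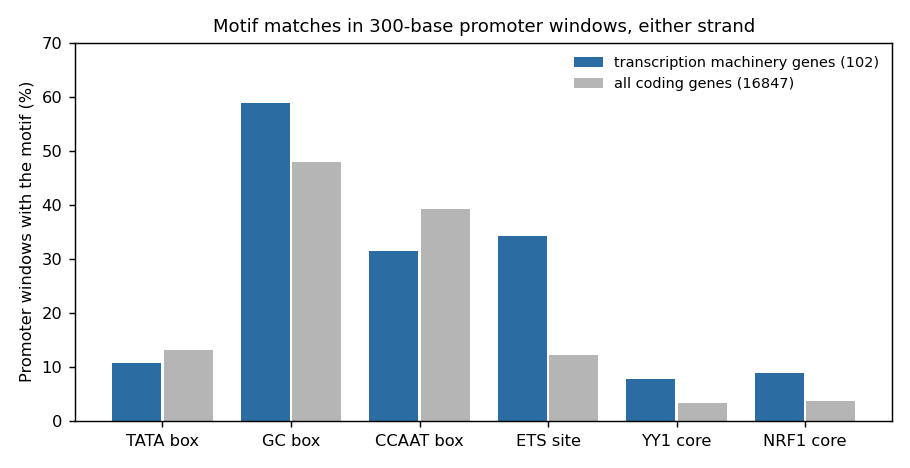
Share of 300-base promoter windows with at least 1 match to each motif on either strand, for 102 transcription machinery genes (blue) and 16847 coding genes (grey). ETS site is CCGGAAG, YY1 core AAGATGGC and NRF1 core GCATGCGC. The ETS bars differ most, at 34.3% and 12.2%, and the TATA and GC box bars change order when only windows with a CpG ratio over 0.6 are used.

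AAGATGGC, the core of sites for the zinc finger factor YY1, was present in 8 member windows (7.84%), against 3.31%, and in windows with a CpG ratio over 0.6 in 7.87% against 5.32%. The letters can overlap the ETS core by the shared AAG. TFIID genes carried 4 of the 8: Taf4, Taf5, Taf6 and Taf8. In Gtf2b, Taf4, Taf5 and Taf8 the ATG inside the motif was the annotated start codon, 25, 0, 17 and 22 bases after the transcript's first base. This arrangement was found in 4 of 102 member windows (3.92%) and in 160 of 16847 (0.95%) in all. In Taf4 the motif began at -3, so its AAG lay before the annotated transcript, which had no leader. A YY1-type element over the start codon of genes with a very short leader is known as TISU, the translation initiator of short 5' untranslated regions. The 30-base stretches are printed to show the motif, in capitals, around the ATG, at chr3:142765258-142765287 (plus), chr2:179976631-179976660 (minus), chr19:47067751-47067780 (plus) and chr17:47502254-47502283 (minus).
Gtf2b: gcggagccgcgAAGATGGCgtcgaccagcc
Taf4: ggcgaggaggaAAGATGGCggcgggctcgg
Taf5: ggctcagccgcAAGATGGCggcgctggcgg
Taf8: tacgcaagagcAAGATGGCtgacacggcgg

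GCATGCGC, the core of sites for NRF1, a regulator of nuclear genes for mitochondria, was present in 9 member windows (8.82%), against 3.70%, and in 8.99% against 6.50% of windows with a CpG ratio over 0.6. The 9 were Polr2b, Polr2j, Taf1a, Taf6, Gtf2f1, Gtf3a, Med4, Med15 and Med17. The heat shock element, searched as GAA, 2 bases, TTC, 2 bases and GAA or its reverse complement, was present in 0 of 102 member windows, against 0.499% of all. These matches describe letters and do not show that a factor binds.

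Genes of the same pathways outside the naming rule were present as well: 49 of 49 listed symbols had a row, with a median span of 23826 bases and 12 exons. They include the remaining TFIIH genes (5 of 5), of which Mnat1, the assembly factor of the kinase part, spanned 150272 bases. The kinase module's own kinases Cdk8 and Cdk19 and cyclin Ccnc had 13 exons each over 71625, 134511 and 32222 bases. Trrap, the SAGA scaffold, had the most exons, 71, and Supt3, another SAGA subunit, the longest span, 342125 bases. The mitochondrial polymerase Polrmt had 21 exons over 10457 bases.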

How the data were processed

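Pol I CUT&Tag was performed on 4 libraries. The submitters' processing notes list FastQC, Bowtie2, deepTools and bedtools, with mm10 as the build; versions and roles were not given in the sources used here. The file analysed is the annotation deposited by the authors: 12 columns of positions, exon numbers and exon sizes in bases, with other text fields, and a score that the authors left at 0. Its making was not given in the sources used here. It holds no values per library, so the planned edgeR test of auxin against control was not run and depth is unknown.

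Rows were read with Python 3.11.15, pandas 2.3.3 and numpy 2.4.6, and figures drawn with matplotlib 3.10.9. Starts were converted to count from 1. Rows of a symbol on assembled chromosomes were merged into a locus. Overlap needed at least 1 shared base on either strand, and a divergent neighbour a 5' end within 1 kb. Exon sizes of related genes were matched in order among internal coding exons. The routines for skipped exons, single-exon genes, overlaps and divergent neighbours were tested on simulated data of 647 genes, with 0 differences from the built-in answers. Divergent pairs with overlapping starts, the matching of exon sizes, the promoter windows and the motif search were not part of that test. Classes were assigned by hand from general knowledge. The members and lists were chosen with earlier results of these data known. Named genes are the longest, the shortest, that with the most exons and that with the most rows of each class, all single-exon members, members on other contigs or sharing exon bases, the largest and second largest subunits, listed paralogue pairs and the Tbp family; others named (Med1, Med26, the genes of motif and skipped-exon results, close neighbours) were chosen after their values were seen. Promoter windows were matched to a row's 5' end in RefSeq GRCm38.p6 tables, in which 118 of 118 members matched by symbol; 16 had no window (among them Brf1, Brf2, Gtf2e2, Med8, Med23, Med24, Med30, Polr2d, Polr2g, Polr2k, Polr3a, Polr3d, Taf2, Taf4b and Taf7). The protein sequences planned for display were not used here, and 1 result that the naming rule covers is not reported here.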

Additional observations from a re-analysis of the deposited data

How the results depend on the processing

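The rule found 118 members on all contigs and without regard to case. The median span lay between 15732 and 16375 bases and the median exon number between 8 and 9 under the transcript and member definitions tried. Genes with more than 1 row numbered 53 by exon chain and 42 by coding part, but 26 by distinct 5' ends. Single-exon members numbered 1 under the row-based alternatives and 4 when only the coding part had to lie in 1 exon. Members sharing bases with another symbol numbered 31, or 23 by exons, 7 on the same strand and 15 with 50% or more of the shorter locus in common. Divergent neighbours numbered 36, or 34 within 500 bases and 39 within 2000. The restriction to windows with a CpG ratio over 0.6 was chosen after seeing the data, as were the comparison of the YY1 core with the start codon and the count of ETS matches between -70 and 50. No paired analysis was possible because the file holds no values per library. The alternatives for Pol I occupancy were not run for the same reason. TATAAA and GGGCGG were the motifs whose order between members and all genes turned round in windows with a CpG ratio over 0.6. How many rows a gene has depends on what was annotated, and the release behind the rows was not given in the sources used here.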
